A study of Mus musculus with 96 samples.

Results

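The creatine system is the set of proteins that makes creatine, brings it into the cell and passes phosphate between it and ATP. It was followed here through 6 genes chosen by name, which are Ckm, Ckb, Ckmt2, Slc6a8, Gatm and Gamt. All 6 were found among the 54150 rows of the deposited count table. Cells spend ATP unevenly in time and place, and creatine kinases hold a reserve by moving a phosphate from ATP to creatine and back. Muscle depends on this reserve during contraction. The cytosolic enzymes are built from M chains (Ckm) and B chains (Ckb), and the switch from B to M during muscle differentiation is a textbook feature of the tissue. Ckmt2 is the sarcomeric mitochondrial creatine kinase, which sits between the mitochondrial membranes and phosphorylates creatine with ATP as it leaves the matrix. Slc6a8 is the plasma membrane transporter that imports creatine. Gatm, in mitochondria, makes guanidinoacetate from arginine and glycine, and Gamt methylates guanidinoacetate to creatine with S-adenosylmethionine.

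RNA-seq was available for 96 samples of the mouse muscle line C2C12 in 35 conditions, 26 of them with 3 samples and 9 with 2, and treatments lasted 10 h except where stated. The myoblasts proliferated in serum-rich medium and carried a lentiviral transgene that 300 ng/ml doxycycline switched on: luciferase (the control), LbNOX (a bacterial enzyme that oxidises cytosolic NADH to form water), mitoLbNOX (the same enzyme sent to mitochondria) or NDI1 (a yeast NADH dehydrogenase that does not pump protons). The myoblasts with luciferase received DMSO, 0.5 µM piericidin (an inhibitor of respiratory complex I), 0.5 µM antimycin (complex III) or 1 µM oligomycin (ATP synthase); LbNOX myoblasts received the same 4 treatments, mitoLbNOX myoblasts all but oligomycin, and NDI1 myoblasts DMSO or piericidin. Further luciferase and LbNOX myoblasts received 20 µg/ml chloramphenicol, which blocks mitochondrial translation, or DMSO for 48 h. Per the paper, uridine was present with chloramphenicol, while the piericidin, antimycin and oligomycin treatments were in media without pyruvate or uridine. Untransduced cells were taken 1 day after the change to low-serum medium (DMSO, piericidin or oligomycin) or after 4 days as myotubes. Those myotubes also received antimycin, 0.5 µM BAM15 (an uncoupler that carries protons across the inner membrane), oligomycin with piericidin or with BAM15, or 5% oxygen from the night before with DMSO or oligomycin. Other myotubes were transduced with adenovirus for GFP, or for GFP with LbNOX, before treatment with DMSO, piericidin or oligomycin. The labels do not say that samples of a condition came from separate cultures, so the p-values measure the spread between these samples, which may be technical.

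Each sample held between 6458295 and 15366745 estimated counts, with a median of 10336588.5. The labelled states carried their markers. Summed over 8 genes of differentiated muscle, levels were 411 to 422 CPM (counts scaled to library size, with TMM factors over all 96 samples) in control myoblasts with DMSO, 14613 to 15168 in day 1 cells and 18068 to 18367 in day 4 myotubes, with none of the 8 at 0. Over 8 genes of myoblasts and cycling cells the sums were 1736 to 1740.1, 312 to 335 and 173 to 215 CPM. Markers of fat and bone cells summed to at most 5.41 CPM over 8 genes in these 3 conditions. Fewer cells of a type and less RNA per cell cannot be told apart in such bulk samples.

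The promoters of the 3 kinase genes are shown because these genes differed most between cell states. RefSeq (GRCm38.p6) held an entry for 5 of the 6 genes, all but Slc6a8, and the 250 bases before each annotated start were read in the direction of transcription. They lie at chr7:19410844-19411093 on the plus strand for Ckm, chr12:111672339-111672588 on the minus strand for Ckb and chr13:91876886-91877135 on the minus strand for Ckmt2. Capitals mark matches to the motifs searched, on both strands: the E-boxes CAGCTG and CACCTG, which myogenic factors bind, the MEF2 site, the CArG box, TATAAA, the ATF4 composite core TGATGNAA and the ERR site TCAAGGTCA.
Ckm: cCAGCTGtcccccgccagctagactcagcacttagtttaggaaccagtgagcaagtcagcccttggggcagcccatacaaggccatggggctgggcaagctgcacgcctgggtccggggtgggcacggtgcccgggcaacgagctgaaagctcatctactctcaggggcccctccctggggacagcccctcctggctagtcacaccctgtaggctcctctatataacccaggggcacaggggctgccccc
Ckb: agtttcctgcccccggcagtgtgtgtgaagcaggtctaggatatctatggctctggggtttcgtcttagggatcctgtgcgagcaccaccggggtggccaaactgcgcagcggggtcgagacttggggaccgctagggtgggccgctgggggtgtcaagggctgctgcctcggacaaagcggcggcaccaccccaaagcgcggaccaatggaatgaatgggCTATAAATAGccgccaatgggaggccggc
Ckmt2: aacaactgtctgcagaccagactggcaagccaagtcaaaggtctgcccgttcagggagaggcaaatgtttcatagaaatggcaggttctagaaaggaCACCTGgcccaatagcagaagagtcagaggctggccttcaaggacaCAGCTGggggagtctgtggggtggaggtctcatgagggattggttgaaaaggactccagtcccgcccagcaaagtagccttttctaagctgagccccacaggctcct
The Ckm window held CAGCTG with its first base 249 bases before the start, and that of Ckmt2 held CAGCTG at 107 and CACCTG at 153 bases. Ckb held a MEF2 site at 29 bases, which overlaps a TATAAA at 28. Gatm had CACCTG at 71 bases, and Gamt had no match. Among 32851 promoters of the same length, 13.0% held CAGCTG, 17.2% CACCTG, 2.92% a MEF2 site, 12.4% TATAAA, 1.47% a CArG box, 3.45% TGATGNAA and 0.387% TCAAGGTCA, and these matches are descriptions of the letters only. In the Ensembl annotation (GRCm38), Ckm (ENSMUSG00000030399) spans chromosome 7 from 19404776 to 19422841, so the RefSeq start lies inside that span. Ckb (ENSMUSG00000001270) spans chromosome 12 from 111669361 to 111672338, and Ckmt2 (ENSMUSG00000021622) chromosome 13 from 91853387 to 91876885. Slc6a8 (ENSMUSG00000019558) lies on chromosome X from 73673150 to 73682502, Gatm (ENSMUSG00000027199) on chromosome 2 from 122594467 to 122611303, and Gamt (ENSMUSG00000020150) on chromosome 10 from 80258151 to 80261012. The libraries do not keep strand. The antisense genes over Ckm (A930016O22Rik) and Ckmt2 (1700119I11Rik) had at most 6 and 1 counts in any sample.

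Differentiated cells had far more mRNA of the kinases and more of Gamt, a passing peak of Gatm, and no detectable difference in the transporter. In the 3 control myoblast samples with DMSO, Ckm, the muscle chain, was at 0.276, 0.212 and 0.183 CPM. In day 1 cells it was at 570.4, 578 and 573 CPM, and in day 4 myotubes at 554, 573 and 553 CPM. The myoblast values rest on 8 counts in all, against 19863 in day 1 cells, and the ratio of levels was 2582 (95% interval 1310 to 5982, exact, for counting error only). Ckm was thus near 0 in every myoblast sample, and between day 1 and day 4 it was not called (-0.02 ± 0.06, adjusted p = 0.82 on the log2 scale). Across the 45 myoblast libraries of every transgene and treatment, Ckm had 0 to 7 counts, with 7 libraries at 0, and in the 42 myotube libraries 4425 to 9838.

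Ckb, the chain of brain and of undifferentiated cells, was also higher in the differentiated cells. Its level was 32.1, 29.97 and 31.9 CPM in myoblasts, 294, 316 and 305 CPM on day 1 and 297, 280.1 and 277 CPM on day 4. Every sample of the later states was above every myoblast sample, and the log2 difference of day 1 cells from myoblasts was 3.27 ± 0.07 (adjusted p = 3.9e-26). On day 4 against day 1 it was -0.09 ± 0.06 (adjusted p = 0.26), which missed the threshold of 0.05 for the adjusted p. Tests here are edgeR's quasi-likelihood F test with Benjamini-Hochberg adjustment over all genes of a comparison, and log2 differences carry their standard error.

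Ckmt2, the mitochondrial kinase, came last. It had 0 counts in each control myoblast sample with DMSO, 0, 0 and 2 counts in the 3 day 1 samples and 21, 23 and 20 in the 3 day 4 samples, which is 2.22, 2.12 and 1.92 CPM. Day 4 over day 1 the ratio of levels was 36.0, from 64 against 2 counts (95% interval 9.58 to 304.0, for counting error only). Against myoblasts the level was at least 25.0-fold higher, with 3 counts over the group standing for 0. Of the 45 myoblast libraries 42 had no count of Ckmt2 and the highest had 1, and 5 of the 9 day 1 libraries had none. Ckmt1, the ubiquitous mitochondrial kinase, had at most 6 counts in any of the 96 libraries and 0 in 80.

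Slc6a8, the transporter, was not called in any comparison of states. It measured 9.74, 11.4 and 9.41 CPM in myoblasts, 12.9, 10.00 and 9.09 CPM on day 1 and 10.2, 9.58 and 10.6 CPM on day 4, with overlapping ranges. The log2 difference was 0.04 ± 0.14 (adjusted p = 0.82) for day 1 against myoblasts and -0.02 ± 0.15 (adjusted p = 0.93) for day 4 against myoblasts. The synthesis enzymes differed from the transporter and from each other. Gatm, the first enzyme, went from 128, 117 and 127 CPM in myoblasts to 367, 346 and 359 CPM on day 1 and was back at 111, 117 and 122 CPM on day 4. Its log2 difference was 1.51 ± 0.06 for day 1 against myoblasts and -1.60 ± 0.06 for day 4 against day 1, while day 4 and myoblasts overlapped (-0.09, adjusted p = 0.15). Gamt, the second enzyme, was at 14.1, 19.1 and 14.5 CPM in myoblasts, 81.6, 75.4 and 85.6 CPM on day 1 and 77.7, 72.9 and 76.9 CPM on day 4. It rose by 2.32 ± 0.11 (adjusted p = 2.4e-17) on the log2 scale by day 1, and day 4 against day 1 was not called (-0.08 ± 0.10, adjusted p = 0.56).

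Ckm and Ckmt2 passed the filter on low counts in these comparisons with myoblasts only through the differentiated cells, and Ckmt2 likewise on day 4 against day 1, so their calls there are not counted. Of the other 4 genes, Ckb, Gatm and Gamt were called higher on day 1 against myoblasts, where 31.3% of 12766 genes were called higher and 63.6% in either direction. Ckb and Gamt were called higher on day 4 against myoblasts, with 35.7% of genes called higher and 69.4% in either direction. On day 4 against day 1, Gatm was called lower, with 35.6% of genes called. The states cannot be told apart from what goes with them, since myoblasts were also transduced, given doxycycline and kept in more serum.

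**Figure D1:**
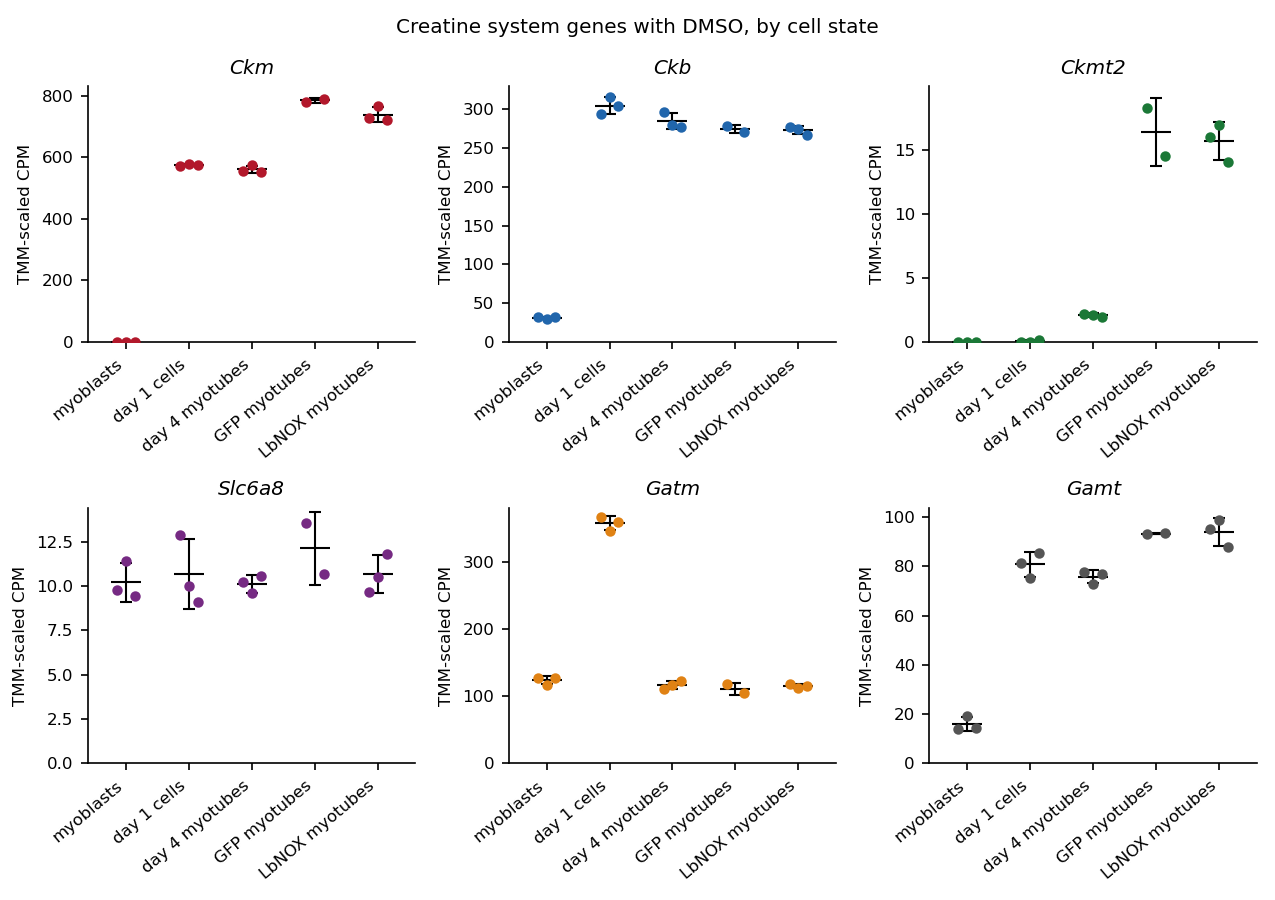
Level in TMM-scaled CPM of each of the 6 genes with DMSO in control myoblasts, day 1 cells, untransduced day 4 myotubes and transduced myotubes (GFP or LbNOX), each point a sample, with the mean and SD as black bars. Ckm and Ckb are high from day 1 on, Gatm is high on day 1 alone, Slc6a8 lies between 9.09 and 13.5 CPM, and Ckmt2 is highest in the transduced myotubes.

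Because reads were counted per gene, levels were divided by transcript length before the kinases were compared with each other. Per kilobase of the longest coding transcript, Ckb stood at 21.3 ± 0.795 CPM in control myoblasts (SD, n = 3 here and in the next sentences), 207 ± 7.33 on day 1 and 193.5 ± 7.25 on day 4. Ckm stood at 0.0815 ± 0.0174, 209 ± 1.36 and 204 ± 4.17 CPM per kilobase. Differentiating cells thus held both chains at like levels on this scale, and myoblasts held almost only Ckb. As a share of the length-scaled levels of the 3 kinases, Ckm made up 0.381% ± 0.0764 in myoblasts, 50.3% ± 0.724 on day 1 and 51.2% ± 1.21 on day 4. With coding length in place of transcript length the shares were 0.708%, 65.3% and 66.1%, so Ckm then exceeded Ckb, and which chain led on day 1 and day 4 rests on the length used. Ckmt2 held 0.351% ± 0.0194 of the total in untransduced myotubes and 2.27% ± 0.356 (n = 2) in GFP myotubes.

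In untransduced day 1 and day 4 cells the mean Ckm share was higher with each inhibitor than with DMSO. On day 4 the Ckm share was 60.2% ± 0.803 with piericidin, 62.2% ± 0.0498 with antimycin, 58.8% ± 1.61 with oligomycin and 59.7% ± 0.572 in 5% oxygen. On day 1 it was 56.01% ± 0.818 with piericidin and 60.2% ± 0.641 with oligomycin. The highest share of all 35 conditions was 65.5% ± 0.475, in GFP myotubes with piericidin (n = 2). The shares follow from the levels of Ckm and Ckb that are tested one by one further on, and were not tested themselves.

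**Figure D2:**
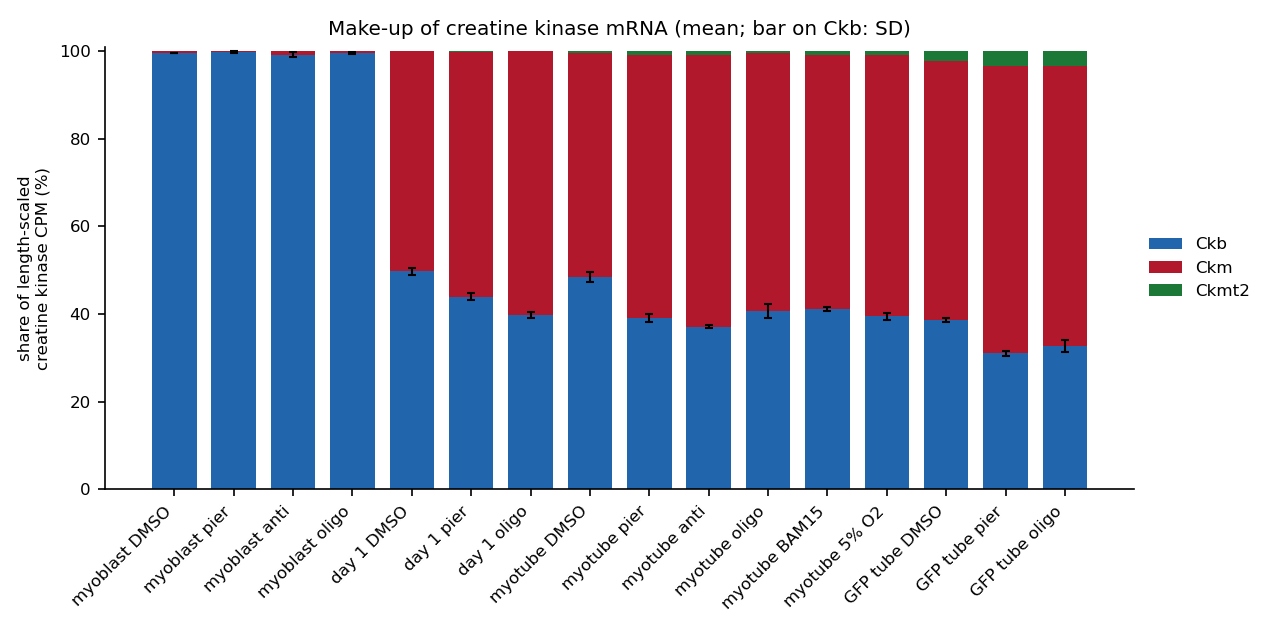
Share of each creatine kinase in the length-scaled CPM of Ckb, Ckm and Ckmt2 together, in percent, for 16 conditions, as stacked means, with the SD over samples drawn on the Ckb segment. Ckb fills nearly the whole bar in the 4 myoblast conditions, Ckm and Ckb share the bars from day 1 on, and from day 1 on the Ckm segment is taller with each inhibitor shown than with DMSO in the same cells.

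In control myoblasts all 3 inhibitors lowered Ckb, Gatm and Gamt and raised Slc6a8, so the kinase and both synthesis enzymes went one way and the transporter the other. The 4 genes past the count filter were called with each inhibitor, where 61.7% of genes were called with piericidin, 63.2% with antimycin and 50.8% with oligomycin. Ckm and Ckmt2 were too low to be tested in myoblasts. Ckb was at 32.1, 29.97 and 31.9 CPM with DMSO, 16.8, 19.2 and 14.9 with piericidin, 20.3, 21.5 and 20.2 with antimycin and 18.3, 15.05 and 14.6 with oligomycin. Every inhibitor sample lay below every DMSO sample. The log2 differences of Ckb were -0.84 ± 0.11 (adjusted p = 4.9e-08) with piericidin, -0.56 ± 0.10 (adjusted p = 2.5e-05) with antimycin and -0.95 ± 0.11 (adjusted p = 6.3e-09) with oligomycin.

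Slc6a8 stood at 9.74, 11.4 and 9.41 CPM with DMSO against 21.6, 17.8 and 18.96 with piericidin, 30.8, 25.9 and 22.9 with antimycin and 13.4, 12.99 and 15.5 with oligomycin. It was above all DMSO samples in each of the 9 treated samples and highest with antimycin. Its log2 differences were 0.97 ± 0.12 (adjusted p = 2.6e-08), 1.41 ± 0.12 (adjusted p = 6.9e-12) and 0.46 ± 0.12 (adjusted p = 0.0017) in the same order. Gatm stood at 128, 117 and 127 CPM with DMSO, 58.7, 58.7 and 57.3 with piericidin, 84.7, 83.7 and 73.3 with antimycin and 83.6, 90.2 and 82.9 with oligomycin. Piericidin gave the lowest Gatm level of the 35 conditions, with log2 differences of -1.05 ± 0.06 (adjusted p = 3.9e-15) for it, -0.59 ± 0.06 (adjusted p = 1.3e-09) for antimycin and -0.52 ± 0.06 (adjusted p = 2.0e-08) for oligomycin. For Gamt the values were 14.1, 19.1 and 14.5 CPM with DMSO, 5.31, 7.16 and 5.51 with piericidin, 9.84, 11.01 and 10.3 with antimycin and 5.70, 8.21 and 8.91 with oligomycin. No treated sample of either enzyme reached the DMSO range, and the mean of Gamt was lowest with piericidin, with log2 differences of -1.37 ± 0.17 (adjusted p = 4.5e-08), -0.58 ± 0.16 (adjusted p = 0.0024) and -1.06 ± 0.16 (adjusted p = 3.0e-06). When the samples with 1 replicate number were left out of every condition of the fit, the calls lost were Gamt (adjusted p = 0.055 without the second replicates) with antimycin and Slc6a8 (adjusted p = 0.11 without the third replicates) with oligomycin. Over the same samples the summed level of 7 genes of the integrated stress response was 857 to 892 CPM with DMSO, 3796 to 4045 with piericidin, 4494 to 4687 with antimycin and 2782 to 2869 with oligomycin. The myoblast and cycling list was at 1736 to 1740.1 CPM with DMSO and 1070.3 to 1228 over the 9 treated samples. The differentiated muscle list was at 411 to 422 CPM with DMSO, 408 to 439 with piericidin, 549 to 601 with antimycin and 387 to 416 with oligomycin, and of its genes Myh3 was at 0 with antimycin and with oligomycin. The part of these shifts in the creatine genes was not tested.

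**Figure D3:**
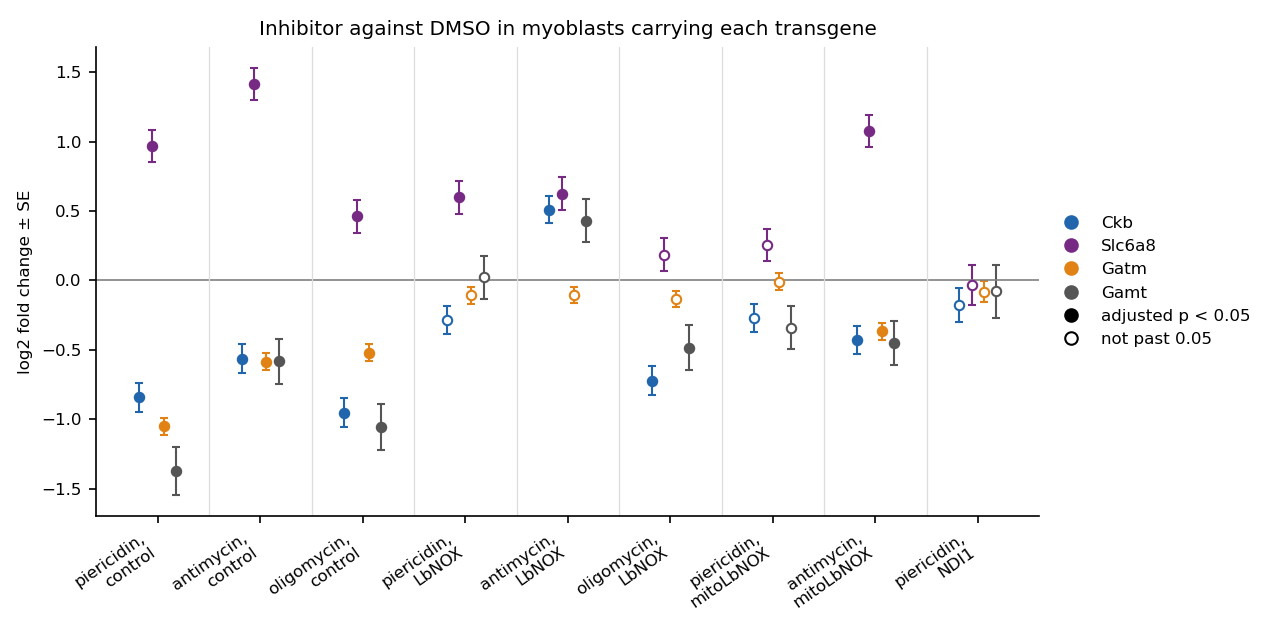
Log2 fold change of Ckb, Slc6a8, Gatm and Gamt (vertical axis, ± SE) for each inhibitor against DMSO in myoblasts carrying luciferase (control), LbNOX, mitoLbNOX or NDI1, with filled points for an adjusted p under 0.05. In control cells Slc6a8 lies above 0 and the other 3 genes below it with all inhibitors, from -1.37 for Gamt with piericidin to 1.41 for Slc6a8 with antimycin, and with piericidin in NDI1 cells no point is filled.

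The inhibitors also differed from each other. Slc6a8 was ordered antimycin, piericidin, oligomycin, with log2 differences of 0.44 ± 0.11 (adjusted p = 0.0021) for antimycin against piericidin and 0.51 ± 0.12 (adjusted p = 7.4e-04) for piericidin against oligomycin, among 37.2% and 39.2% of genes called. Gatm was lower with piericidin than with antimycin or oligomycin, by 0.46 ± 0.06 for antimycin against piericidin and -0.53 ± 0.06 for piericidin against oligomycin on the log2 scale. Antimycin and oligomycin left Gatm at levels not told apart (-0.07 ± 0.06, adjusted p = 0.39, with 50% of genes called). Gamt was higher with antimycin than with piericidin (0.79 ± 0.18, adjusted p = 7.4e-04) and than with oligomycin (0.47 ± 0.17, adjusted p = 0.023). Ckb was also highest with antimycin, by 0.39 ± 0.11 (adjusted p = 0.0036) over oligomycin and 0.28 ± 0.11 (adjusted p = 0.045) over piericidin. The last of these was lost in 7 alternatives: Ckb (adjusted p = 0.058 with DESeq2 size factors, 0.23 without the filter on low counts, 0.096 with DESeq2's Wald test, 0.15 with only the conditions compared in the fit, 0.095 without the first replicates, 0.11 without the second replicates and 0.32 without the third replicates). Other calls lost in some alternatives were Ckb (adjusted p = 0.15 without the second replicates and 0.054 without the third replicates) and Gamt (adjusted p = 0.089 with only the conditions compared in the fit, 0.19 without the first replicates and 0.16 without the second replicates) for antimycin against oligomycin. Also lost were Slc6a8 (adjusted p = 0.0504 without the second replicates) for antimycin against piericidin and Slc6a8 (adjusted p = 0.071 without the first replicates) for piericidin against oligomycin.

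The transgenic lines address whether oxidising NADH or bypassing complex I alters these responses. With LbNOX, piericidin left Gamt at 13.3, 14.8 and 15.3 CPM against 13.4, 13.5 and 16.1 with DMSO, and Gatm at 146, 148 and 139 CPM against 169, 159.6 and 140.1. The ranges overlapped for both, and neither passed the test (log2 0.02 and -0.11). The response in LbNOX cells minus that in control cells was 1.39 ± 0.23 (adjusted p = 1.2e-05) for Gamt, 0.94 ± 0.09 (adjusted p = 2.3e-10) for Gatm and 0.55 ± 0.15 (adjusted p = 0.0026) for Ckb, in a comparison with 44.3% of genes called. Slc6a8 still rose with piericidin in LbNOX cells (0.60 ± 0.12, adjusted p = 7.6e-04), the only one of the 4 genes called where 8.87% of genes were, and its difference from the control response missed the threshold (-0.37 ± 0.17, adjusted p = 0.070), which it passed without the second replicates (-0.60, adjusted p = 0.032). Calls lost in some fits were Slc6a8 (adjusted p = 0.082 without the second replicates) for the rise with piericidin and Ckb (adjusted p = 0.15 at log2 0.34 without the third replicates) for the difference from control cells. The stress response sum was 1283 to 1309 CPM in these piericidin samples.

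Antimycin in LbNOX cells reversed the direction of Ckb. Its level was 44.4, 47.3 and 39.98 CPM with antimycin and 35.5, 31.2 and 29.4 with DMSO, all antimycin samples higher, where control cells had gone down. The log2 difference was 0.51 ± 0.10 (adjusted p = 9.1e-05) in LbNOX cells (46.1% of genes called), and its difference from the control response was 1.07 ± 0.14 (adjusted p = 2.6e-07), with 51.5% called. Gamt rose as well with antimycin, 17.7, 19.9 and 18.1 CPM against 13.4, 13.5 and 16.1, by 0.43 ± 0.16 (adjusted p = 0.024), but this call was lost in some settings: Gamt (adjusted p = 0.10 without the filter on low counts, 0.092 without the first replicates and 0.30 without the second replicates). The response differed from the control cells for Gamt (1.01 ± 0.22), Gatm (0.48 ± 0.09) and Slc6a8 (-0.79 ± 0.16, adjusted p = 1.8e-04). Slc6a8 rose by 0.62 ± 0.12, less than in control cells, and Gatm was not called (-0.10 ± 0.06, adjusted p = 0.16), except without the third replicates (-0.20, adjusted p = 0.011). In these LbNOX cells the differentiated muscle list summed to 435 to 456 CPM with antimycin, with Mef2c at 0, and 327 to 347 with DMSO. The myoblast and cycling list summed to 771 to 804 and 1712 to 1751 CPM, and the part of either in these values was not tested.

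Oligomycin lowered Ckb and Gamt in LbNOX cells as well. Ckb was at 20.3, 18.5 and 17.7 CPM against 35.5, 31.2 and 29.4 with DMSO, again without overlap, and fell (-0.72 ± 0.10, adjusted p = 1.8e-06), as did Gamt (-0.48 ± 0.16, adjusted p = 0.020), where 35.2% of genes were called. For Gamt this rests on the settings: Gamt (adjusted p = 0.055 with only the conditions compared in the fit, 0.13 without the second replicates and 0.32 at log2 -0.27 without the third replicates). The response to oligomycin differed from control cells for Gatm, by 0.38 ± 0.09 (adjusted p = 0.0035) with 7.98% of genes called, and it was lost in 1 fit: Gatm (adjusted p = 0.063 without the first replicates). For Gamt the difference was not called (0.57 ± 0.23, adjusted p = 0.14), except without the third replicates (0.98, adjusted p = 0.046).

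With mitoLbNOX, piericidin moved no gene of the 4 past the threshold (0 of 4 genes by edgeR, 3 at an unadjusted p under 0.05 and 0 by DESeq2), where 11.2% of genes passed it. Gatm, for one, was at 136, 133 and 125 CPM with piericidin and 137, 137 and 120.2 with DMSO. All 4 responses differed from control cells (42.8% of genes called), by 1.04 ± 0.09 for Gatm, 1.03 ± 0.23 for Gamt, 0.57 ± 0.15 for Ckb and -0.71 ± 0.16 for Slc6a8. With antimycin, Slc6a8 reached 28.6, 28.6 and 24.5 CPM, from 13.1, 12.9 and 13.1 with DMSO, and all 4 genes moved in the direction seen in control cells, with 47.7% of genes called. The log2 differences were 1.07 ± 0.11 (adjusted p = 3.1e-09) for Slc6a8, -0.43 ± 0.10 (adjusted p = 8.9e-04) for Ckb, -0.37 ± 0.06 (adjusted p = 8.6e-06) for Gatm and -0.45 ± 0.16 (adjusted p = 0.020) for Gamt, the last with exceptions: Gamt (adjusted p = 0.051 with only the conditions compared in the fit, 0.072 without the first replicates and 0.13 without the second replicates). The response to antimycin was not called different from control cells (0 of 4 genes by edgeR, 2 at an unadjusted p under 0.05 and 0 by DESeq2), where 31.7% of all genes were. Gatm was nearest, at 0.22 ± 0.09 (adjusted p = 0.0502).

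In NDI1 cells (n = 2), piericidin left Slc6a8 at 11.5 and 12.01 CPM against 10.4 and 13.7 with DMSO, and Gatm at 148 and 142 CPM against 149 and 159. The calls were 0 of 4 genes by edgeR, 0 at an unadjusted p under 0.05 and 0 by DESeq2, in a comparison in which 0.00835% of all genes were called, and log2 differences lay between -0.18 (Ckb) and -0.03 (Slc6a8). Against control cells all 4 responses differed (42.7% of genes called), by 1.29 ± 0.26 (adjusted p = 1.3e-04) for Gamt, 0.97 ± 0.10 (adjusted p = 1.2e-09) for Gatm, 0.66 ± 0.16 (adjusted p = 0.0013) for Ckb and -0.997 ± 0.19 (adjusted p = 5.8e-05) for Slc6a8. NDI1 and LbNOX cells also had more Gatm than control cells with DMSO alone, with log2 differences of 0.31 ± 0.07 (adjusted p = 0.0038) for NDI1 and 0.33 ± 0.06 (adjusted p = 6.3e-04) for LbNOX, where 4.61% and 2.68% of genes were called. Both calls were lost in some fits: for NDI1 Gatm (adjusted p = 0.0504 with only the conditions compared in the fit and 0.44 without the second replicates), and for LbNOX Gatm (adjusted p = 0.065 without the first replicates and 0.22 without the second replicates). In mitoLbNOX cells with DMSO the calls against control cells were 0 of 4 genes by edgeR, 1 at an unadjusted p under 0.05 and 0 by DESeq2, beside 1.77% of all genes. The interactions share the control samples, and each transgene is a separate transduced line.

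Chloramphenicol for 48 h lowered Ckb in control myoblasts, a call that many alternatives ended. With 2 samples a condition, Ckb was at 18.7 and 18.3 CPM with chloramphenicol and 25.6 and 28.3 with DMSO in control myoblasts. These did not overlap, and the log2 difference was -0.50 ± 0.12 (adjusted p = 0.041), where 8.45% of genes were called. The call was lost in 10 of the alternatives, among them DESeq2's Wald test (adjusted p = 0.081) and every fit without a sample of the control cells (adjusted p between 0.078 and 0.22). Gamt (-0.51 ± 0.16), Gatm (-0.29 ± 0.08) and Slc6a8 (0.39 ± 0.23) were not called by edgeR. Gatm was called by DESeq2's Wald test (adjusted p = 0.034), by edgeR without the filter on low counts (adjusted p = 0.0041), and by edgeR without the first chloramphenicol sample of the control cells (-0.43, adjusted p = 0.036). In LbNOX cells the calls were 0 of 4 genes by edgeR, 1 at an unadjusted p under 0.05 and 0 by DESeq2, beside 0.931% of all genes. The difference between the lines gave 0 of 4 genes by edgeR, 1 at an unadjusted p under 0.05 and 0 by DESeq2, beside 0.53% of all genes.

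On day 1 the inhibitors acted on cells in which Ckm was high and Ckmt2 still near 0. Oligomycin brought Ckb from 294, 316 and 305 to 176, 176 and 184 CPM and Gamt from 81.6, 75.4 and 85.6 to 47.9, 46.9 and 57.3 CPM. Both fell without overlap (-0.77 ± 0.04 (adjusted p = 2.4e-07) and -0.67 ± 0.08 (adjusted p = 1.6e-04)), where 20.7% of genes were called. Gatm went from 367, 346 and 359 to 288, 287 and 305 CPM (-0.28 ± 0.04, adjusted p = 5.9e-04), and Ckm from 570.4, 578 and 573 to 511, 489 and 511 CPM (-0.18 ± 0.03, adjusted p = 0.0028). The decrease of Ckm was small and not called in every fit: Ckm (adjusted p = 0.0503 without the first replicates and 0.065 without the second replicates). Slc6a8 was not called with oligomycin (0.11 ± 0.17, adjusted p = 0.71). Piericidin lowered Ckb (-0.26 ± 0.04, adjusted p = 0.0095) and Gatm (-0.20 ± 0.04, adjusted p = 0.027), where 2.75% of genes were called, and both calls were lost without any 1 of the 3 replicate numbers, with adjusted p between 0.10 and 0.32. The stress response sum was 886 to 924 CPM with DMSO and 2303 to 2357 with oligomycin.

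In day 4 myotubes the kinases changed in different directions. Piericidin and antimycin raised Ckm and Ckmt2 and lowered Ckb, and oligomycin lowered Ckb, Gatm and Gamt without raising Ckm or Ckmt2. Ckm was at 554, 573 and 553 CPM with DMSO, 741, 656 and 668 with piericidin, 651, 656 and 649.9 with antimycin and 528, 487 and 544 with oligomycin. All piericidin and antimycin samples were above all DMSO and oligomycin samples. The log2 differences were 0.32 ± 0.05 (adjusted p = 4.7e-05) for piericidin, 0.24 ± 0.05 (adjusted p = 9.0e-04) for antimycin and -0.07 ± 0.05 (adjusted p = 0.26) for oligomycin. The members called were 4 of 6 with piericidin, 4 of 6 with antimycin and 4 of 6 with oligomycin, beside 8.99%, 12.9% and 33.3% of all genes.

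Ckmt2 was at 2.22, 2.12 and 1.92 CPM with DMSO, 5.71, 4.14 and 4.33 with piericidin, 3.54, 3.29 and 6.26 with antimycin and 2.07, 2.08 and 2.77 with oligomycin. With DMSO it had 21, 23 and 20 counts, so its differences rest on few reads. It rose with piericidin (1.18 ± 0.33, adjusted p = 0.022) and antimycin (1.06 ± 0.32, adjusted p = 0.030), and leaving out samples ended both calls: Ckmt2 (adjusted p = 0.27 without the first replicates and 0.15 without the second replicates) for piericidin, and Ckmt2 (adjusted p = 0.054 without the filter on low counts, 0.052 with only the conditions compared in the fit, 0.15 without the first replicates, 0.13 without the second replicates and 0.18 at log2 0.66 without the third replicates) for antimycin. Ckb was at 297, 280.1 and 277 CPM with DMSO, 247, 232 and 238 with piericidin, 209, 211 and 206 with antimycin and 199.8, 191 and 187 with oligomycin. Its mean was lowest with oligomycin, and the log2 differences in the same order were -0.23 ± 0.05 (adjusted p = 0.0018), -0.43 ± 0.05 (adjusted p = 4.4e-07) and -0.53 ± 0.05 (adjusted p = 3.2e-09). With piericidin the call of Ckb was lost in 2 fits: Ckb (adjusted p = 0.076 without the second replicates and 0.053 without the third replicates).

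Slc6a8 rose with each inhibitor in myotubes too, from 10.2, 9.58 and 10.6 CPM to 11.4, 16.1 and 15.5 with piericidin, 16.9, 14.5 and 16.9 with antimycin and 13.6, 13.4 and 15.8 with oligomycin. All 9 treated samples were above the 3 with DMSO, with log2 differences of 0.53 ± 0.12 (adjusted p = 0.0051), 0.68 ± 0.12 (adjusted p = 2.4e-04) and 0.53 ± 0.12 (adjusted p = 0.0012). The piericidin call was lost in some fits: Slc6a8 (adjusted p = 0.10 without the filter on low counts, 0.21 without the second replicates and 0.098 without the third replicates). Gatm (111, 117 and 122 CPM with DMSO, 98.2, 87.96 and 93.1 with oligomycin) and Gamt (77.7, 72.9 and 76.9 and 57.6, 55.98 and 61.2 CPM) fell with oligomycin, with log2 differences of -0.29 ± 0.06 (adjusted p = 2.2e-04) and -0.34 ± 0.06 (adjusted p = 1.1e-04). With piericidin and antimycin their log2 differences lay between -0.15 and 0.04, none called. The stress response sum was 602 to 629 CPM with DMSO, 579 to 635 with piericidin, 791 to 846 with antimycin and 2136 to 2284 with oligomycin, and its part in these values was not tested.

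Set against each other in myotubes, antimycin and piericidin gave 0 of 6 genes by edgeR, 2 at an unadjusted p under 0.05 and 1 by DESeq2, beside 0.656% of all genes called. Ckb was nearest (-0.20 ± 0.05, adjusted p = 0.052 in edgeR) and was called by DESeq2 and by edgeR with DESeq2 size factors (adjusted p = 0.039). Oligomycin differed from piericidin in 5 genes with 28.1% of genes called, by -0.39 ± 0.05 (adjusted p = 5.3e-07) for Ckm, -0.29 ± 0.05 (adjusted p = 3.9e-05) for Ckb, -1.002 ± 0.32 (adjusted p = 0.021) for Ckmt2, -0.33 ± 0.06 (adjusted p = 7.3e-05) for Gatm and -0.28 ± 0.06 (adjusted p = 0.0012) for Gamt. From antimycin it differed in Ckm (-0.31 ± 0.05, adjusted p = 1.8e-05), Ckmt2 (-0.88 ± 0.32, adjusted p = 0.049), Gatm (-0.21 ± 0.06, adjusted p = 0.0065) and Gamt (-0.19 ± 0.06, adjusted p = 0.025), with 21.5% called. Slc6a8 was within the spread in all 3 comparisons, from -0.15 ± 0.11 for oligomycin against antimycin to 0.15 ± 0.12 for antimycin against piericidin. Of these, Ckm was called in every alternative and Ckb and Gatm against piericidin too. Against piericidin, Ckmt2 (adjusted p = 0.072 with plate position as a covariate, 0.28 without the first replicates and 0.13 without the second replicates) and Gamt (adjusted p = 0.083 without the second replicates) were lost. Against antimycin, Gatm (adjusted p = 0.061 without the filter on low counts, 0.063 without the first replicates, 0.086 without the second replicates and 0.056 without the third replicates) and Gamt (adjusted p = 0.23 without the filter on low counts, 0.054 with DESeq2's Wald test, 0.059 with only the conditions compared in the fit, 0.23 without the first replicates and 0.30 without the second replicates) were lost. Ckmt2 against antimycin was lost in 9 alternatives, with an adjusted p of up to 0.21.

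**Figure D4:**
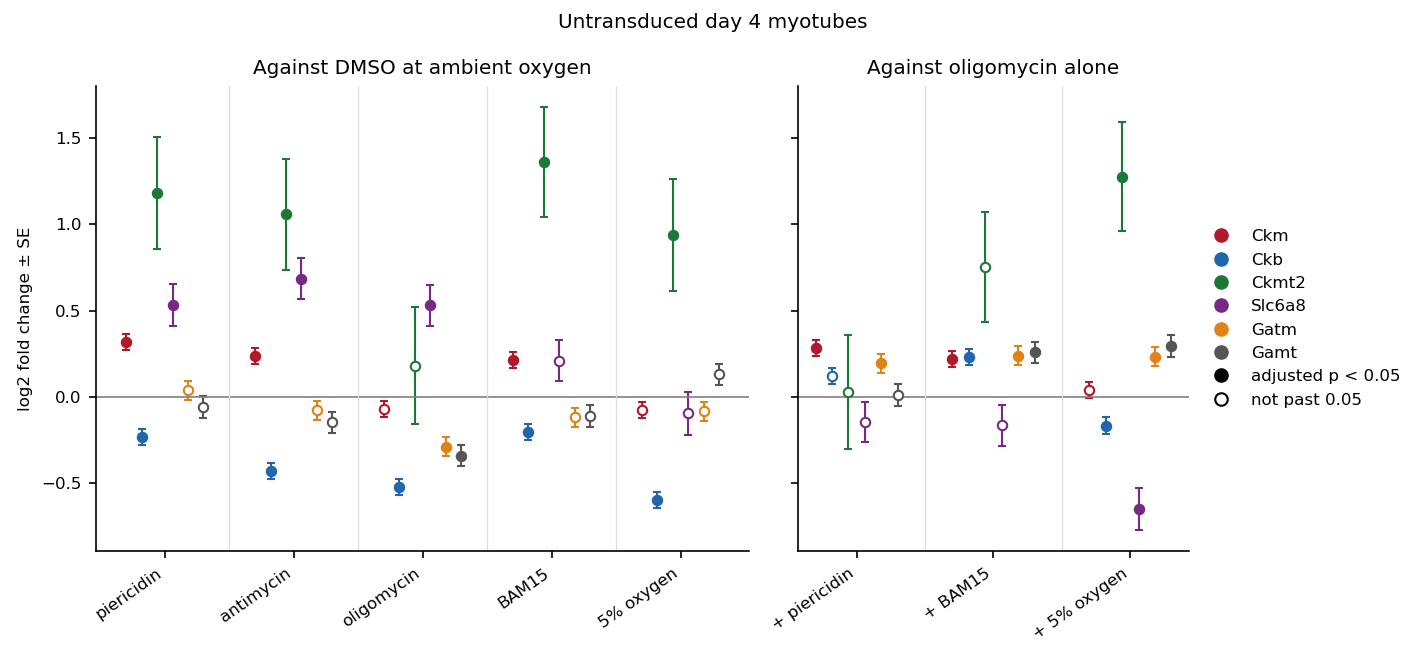
Log2 fold change (vertical axis, ± SE) of the 6 genes in untransduced day 4 myotubes, against DMSO at ambient oxygen on the left and against oligomycin alone on the right, with filled points for an adjusted p under 0.05. Ckmt2 lies above 0.9 with piericidin, antimycin, BAM15 and 5% oxygen and at 0.18 with oligomycin, while Ckb lies below 0 in all 5 comparisons on the left.

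The uncoupler BAM15 lets protons back into the matrix without ATP synthase. By itself it brought Ckmt2 to 4.58, 4.75 and 6.12 CPM and Ckm to 633, 656 and 584 CPM, each above all DMSO samples. Ckmt2 rose by 1.36 ± 0.32 (adjusted p = 0.0028) and Ckm by 0.22 ± 0.05 (adjusted p = 0.0013), while Ckb fell (-0.20 ± 0.05, adjusted p = 0.0023), where 25.4% of genes were called. Leaving out the third replicates ended the Ckb call: Ckb (adjusted p = 0.055 without the third replicates). Gatm and Gamt were not called with BAM15 (-0.12 and -0.11), and neither was Slc6a8 (0.21 ± 0.12, adjusted p = 0.22). Added to oligomycin, BAM15 gave higher Gamt (65.8, 68.9 and 70.2 CPM against 57.6, 55.98 and 61.2), Gatm (103, 109 and 110.4 against 98.2, 87.96 and 93.1) and Ckb (218, 226 and 221 against 199.8, 191 and 187). The log2 differences from oligomycin alone were 0.26 ± 0.06 (adjusted p = 0.0026) for Gamt, 0.24 ± 0.06 (adjusted p = 0.0021) for Gatm, 0.23 ± 0.05 (adjusted p = 6.0e-04) for Ckb and 0.22 ± 0.05 (adjusted p = 9.3e-04) for Ckm, with 26.1% of genes called. Each of the 4 was lost in 1 fit, as Gamt (adjusted p = 0.080 without the second replicates), Gatm (adjusted p = 0.084 without the second replicates), Ckb (adjusted p = 0.051 without the third replicates) and Ckm (adjusted p = 0.065 without the second replicates). Against BAM15 alone the combination gave 0 of 6 genes by edgeR, 0 at an unadjusted p under 0.05 and 0 by DESeq2, beside 1.7% of all genes.

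Piericidin added to oligomycin raised Ckm to 629, 616 and 651 CPM, above the oligomycin samples, by 0.28 ± 0.05 (adjusted p = 6.7e-05) with 20.9% of genes called. Gatm was called higher as well (0.19 ± 0.06, adjusted p = 0.013), a difference lost in several fits: Gatm (adjusted p = 0.11 without the filter on low counts, 0.067 with only the conditions compared in the fit, 0.16 without the second replicates and 0.23 without the third replicates). Ckmt2 did not follow, at 1.82, 2.41 and 2.84 CPM (0.03 ± 0.33, adjusted p = 0.97). Against piericidin alone the combination had less Gamt (-0.27 ± 0.06, adjusted p = 0.026, with 1.19% of genes called), which was lost in 5 alternatives: Gamt (adjusted p = 0.14 without the filter on low counts, 0.11 with only the conditions compared in the fit, 0.35 without the first replicates, 0.36 without the second replicates and 0.10 without the third replicates). Ckb was not called there by edgeR (-0.17 ± 0.05, adjusted p = 0.080) and was called lower by DESeq2's Wald test (-0.17, adjusted p = 0.021).

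In 5% oxygen, Ckb was at 176, 194 and 175 CPM, below all DMSO samples, with a log2 difference of -0.60 ± 0.05 (adjusted p = 4.4e-10), where 22.1% of genes were called. Ckmt2 was at 4.52, 5.23 and 2.01 CPM. The third of these samples lies within the DMSO range of 2.22, 2.12 and 1.92 CPM, so the called difference of 0.94 ± 0.33 (adjusted p = 0.040) is the only call of a member in which the groups overlap. It was lost in several fits, Ckmt2 (adjusted p = 0.11 without the filter on low counts, 0.085 with only the conditions compared in the fit, 0.27 without the first replicates and 0.37 without the second replicates). Oligomycin within 5% oxygen gave 0 of 6 genes by edgeR, 1 at an unadjusted p under 0.05 and 0 by DESeq2, beside 4.26% of all genes. Under oligomycin, 5% oxygen against ambient oxygen gave less Slc6a8 (8.89, 9.46 and 8.54 CPM against 13.6, 13.4 and 15.8), more Ckmt2 (5.92, 7.12 and 3.53 against 2.07, 2.08 and 2.77) and more Gamt (76.6, 73.2 and 61.8 against 57.6, 55.98 and 61.2). None of these 3 genes overlapped between the groups, and 33.3% of genes were called. Log2 differences were -0.65 ± 0.12 (adjusted p = 1.7e-04) for Slc6a8, 1.28 ± 0.32 (adjusted p = 0.0028) for Ckmt2, 0.29 ± 0.06 (adjusted p = 6.3e-04) for Gamt, 0.23 ± 0.06 (adjusted p = 0.0020) for Gatm and -0.17 ± 0.05 (adjusted p = 0.0081) for Ckb. Slc6a8 was called in every alternative, and the others were lost in some: Ckmt2 (adjusted p = 0.083 without the first replicates and 0.13 without the second replicates), Gamt (adjusted p = 0.054 without the first replicates and 0.075 without the second replicates), Gatm (adjusted p = 0.059 without the filter on low counts and 0.072 without the second replicates) and Ckb (adjusted p = 0.073 with only the conditions compared in the fit and 0.13 at log2 -0.11 without the first replicates). The stress response sum was 2136 to 2284 CPM with oligomycin, 1001 to 1139 with BAM15 added, 917 to 954 with piericidin added and 813 to 850.2 with oligomycin in 5% oxygen, and its part in the values of the combinations was not tested. The myoblast and cycling list summed to 56.3 to 61.9 CPM in 5% oxygen with DMSO and 173 to 215 in ambient oxygen.

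Transduced myotubes, with 2 GFP samples and 3 LbNOX samples a treatment, had higher Ckmt2 than untransduced ones. Ckmt2 was at 18.2 and 14.5 CPM in GFP and 15.96, 16.9 and 14.03 in LbNOX myotubes with DMSO, against 2.22, 2.12 and 1.92 in untransduced myotubes. Ckm was at 779 and 789 CPM in GFP, 728, 767 and 719.7 in LbNOX and 554, 573 and 553 in untransduced myotubes. Gamt was at 93.1 and 93.4 CPM in GFP, 95.2, 98.9 and 87.99 in LbNOX and 77.7, 72.9 and 76.9 in untransduced myotubes. No sample of either transduced group overlapped the untransduced ones in these 3 genes, and the difference was not tested, since the 2 kinds of myotube were modelled apart. The share of all genes that separate in this way was not counted, so these values do not set the 3 genes apart. Per kilobase, Ckb with DMSO stood at 187 ± 3.30 CPM (SD) in GFP, 186 ± 3.39 in LbNOX and 193.5 ± 7.25 in untransduced myotubes. Gatm stood at 46.5 ± 3.82, 48.2 ± 1.36 and 48.9 ± 2.25 in the same order. Differentiated muscle markers summed to 16188 to 17267 CPM in the transduced and 18068 to 18367 in the untransduced samples. LbNOX against GFP myotubes with DMSO gave 0 of 6 genes by edgeR, 0 at an unadjusted p under 0.05 and 0 by DESeq2, beside 0.0242% of all genes.

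Piericidin in GFP myotubes lowered Ckb (-0.26 ± 0.05, adjusted p = 0.0098) and Gamt (-0.29 ± 0.07, adjusted p = 0.030) and raised Ckmt2 (0.63 ± 0.15, adjusted p = 0.033), to 24.2 and 27.2 CPM, with 3.09% of genes called. Ckm was at 880.0 and 949 CPM, above both DMSO samples, and missed the threshold (0.21 ± 0.05, adjusted p = 0.055). It was called by DESeq2's Wald test (adjusted p = 0.0042) and by edgeR without the filter on low counts (0.0020), with plate position as a covariate (0.047) and without the third replicates (0.049). Fits that left out samples or modelled only the conditions compared ended all 3 calls: Ckb (adjusted p = 0.21 with only the conditions compared in the fit, 0.36 without the first replicates and 0.12 without the second replicates), Gamt (adjusted p = 0.14 without the filter on low counts, 0.26 with only the conditions compared in the fit, 0.37 without the first replicates and 0.20 without the second replicates) and Ckmt2 (adjusted p = 0.29 with only the conditions compared in the fit, 0.087 without the first replicates, 0.40 at log2 0.39 without the second replicates and 0.060 without the third replicates). In LbNOX myotubes piericidin raised Ckm to 897, 861 and 947 CPM (0.27 ± 0.04, adjusted p = 0.0015), Ckmt2 to 21.5, 20.4 and 25.5 (0.51 ± 0.12, adjusted p = 0.023) and Slc6a8 to 17.2, 14.97 and 19.02 (0.66 ± 0.15, adjusted p = 0.014), and lowered Ckb (-0.20 ± 0.04, adjusted p = 0.0077), with 6.78% of genes called. Ckm was called in every alternative, and the others were lost in some: Ckmt2 (adjusted p = 0.066 without the first replicates, 0.066 without the second replicates and 0.28 without the third replicates), Slc6a8 (adjusted p = 0.13 without the first replicates, 0.058 without the second replicates and 0.091 without the third replicates) and Ckb (adjusted p = 0.14 without the first replicates and 0.20 without the second replicates).

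Oligomycin lowered Ckb, Gatm, Gamt and also Ckm in both. Ckb went to 189.9 and 193 CPM in GFP myotubes (-0.53 ± 0.05, adjusted p = 1.7e-06) and to 196, 184 and 186 in LbNOX myotubes (-0.53 ± 0.04, adjusted p = 1.3e-07), from 278 and 271 and 277, 275 and 268 CPM. The log2 differences in GFP and LbNOX myotubes were -0.56 ± 0.07 and -0.49 ± 0.06 for Gamt, -0.34 ± 0.07 and -0.26 ± 0.06 for Gatm, and -0.18 ± 0.05 and -0.26 ± 0.04 for Ckm. Slc6a8 rose in LbNOX myotubes (0.59 ± 0.15, adjusted p = 0.0069) and was not called in GFP myotubes (0.14 ± 0.18, adjusted p = 0.63). The shares of genes called were 25.9% and 32%. In GFP myotubes Ckm (adjusted p = 0.095 without the first replicates and 0.26 without the second replicates) and Gatm (adjusted p = 0.056 with only the conditions compared in the fit and 0.075 without the first replicates) were lost, and in LbNOX myotubes Slc6a8 (adjusted p = 0.14 without the first replicates) and Gatm (adjusted p = 0.056 without the third replicates). For the difference between LbNOX and GFP myotubes in the response, the counts were 0 of 6 genes by edgeR, 0 at an unadjusted p under 0.05 and 0 by DESeq2 for piericidin, and the same for oligomycin, beside 0% of all genes in each.

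**Figure D5:**
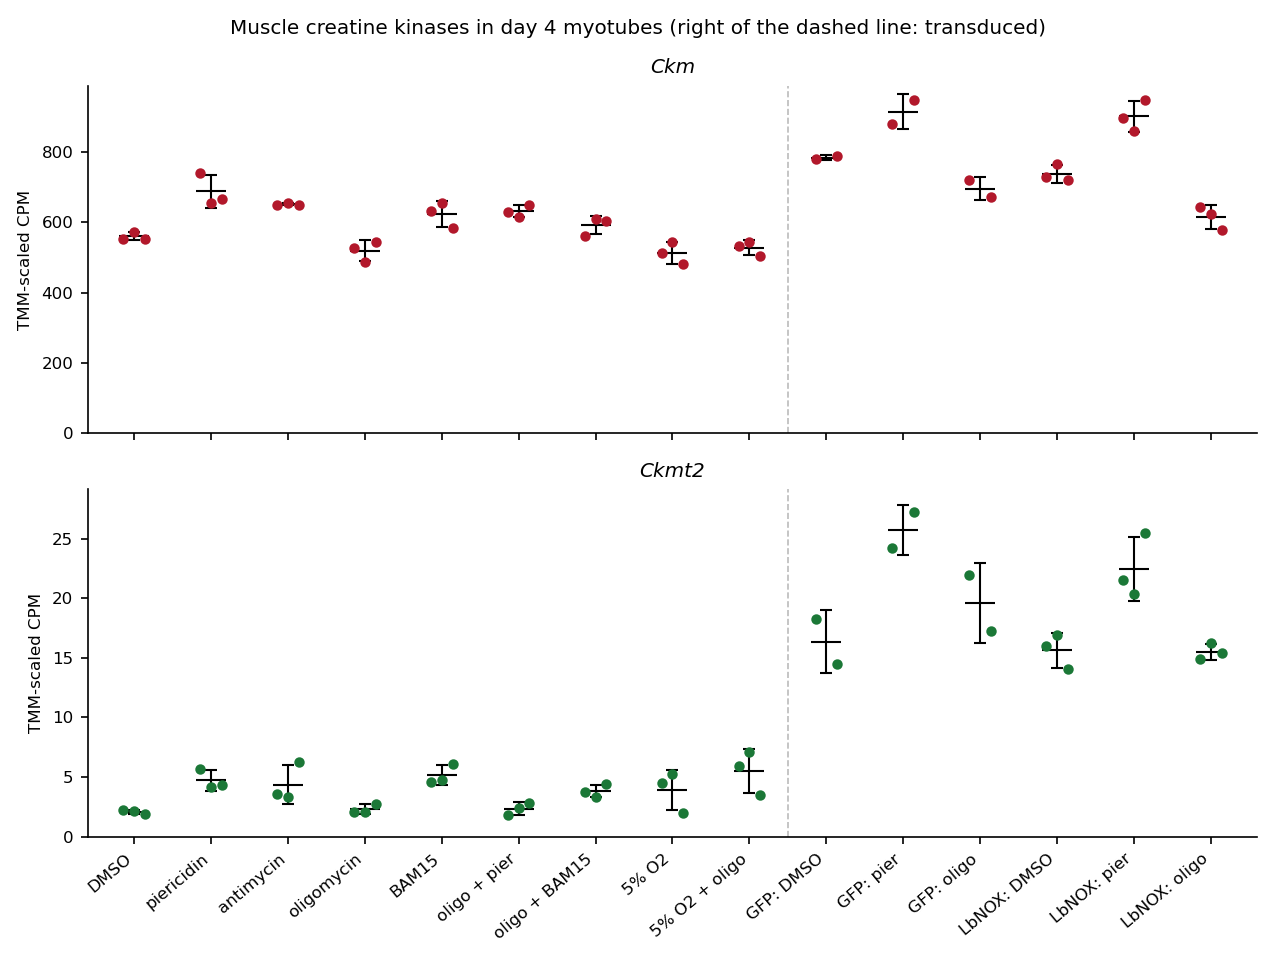
Level of Ckm (top) and Ckmt2 (bottom) in TMM-scaled CPM for every day 4 myotube condition, each point a sample, with the mean and SD as black bars and transduced myotubes right of the dashed line. Ckmt2 ranges from 1.82 to 7.12 CPM in untransduced samples and reaches 27.2 CPM in transduced ones, all of which are higher.

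Whether a response differed between cell states was tested in a fit over the control myoblasts, day 1 cells and untransduced myotubes. Piericidin lowered Ckb, Gatm and Gamt in myoblasts, and the response in myotubes minus that in myoblasts was 1.13 ± 0.08 (adjusted p = 1.8e-12) for Gatm, 1.36 ± 0.17 (adjusted p = 1.2e-07) for Gamt and 0.65 ± 0.09 (adjusted p = 1.3e-06) for Ckb, where 46.5% of genes were called. Day 1 cells differed from myoblasts in the same genes, by 0.90 ± 0.08, 1.26 ± 0.17 and 0.64 ± 0.09, and also in Slc6a8 (-0.89 ± 0.20, adjusted p = 6.6e-04), with 46.6% called. For Slc6a8 the myotubes were not called different from myoblasts (-0.39 ± 0.20, adjusted p = 0.12), except without the second replicates (-0.72, adjusted p = 0.044). Between myotubes and day 1 cells the responses to piericidin gave 0 of 6 genes by edgeR, 3 at an unadjusted p under 0.05 and 0 by DESeq2, beside 0.689% of all genes, and those to oligomycin 0 of 6 genes by edgeR, 2 at an unadjusted p under 0.05 and 1 by DESeq2 (Ckb), beside 3.57%. These 6 include Ckmt2, which passed the filter only through the myotubes. It had 0 to 5 counts a sample on day 1, so no response of Ckmt2 could be measured there. With antimycin, myotubes differed from myoblasts in Gatm (0.56 ± 0.08, adjusted p = 1.3e-06), Gamt (0.49 ± 0.16, adjusted p = 0.013) and Slc6a8 (-0.68 ± 0.20, adjusted p = 0.0058), with 47.9% called. With oligomycin they differed in Gamt (0.73 ± 0.16, adjusted p = 0.0011), Ckb (0.43 ± 0.09, adjusted p = 8.3e-04) and Gatm (0.23 ± 0.08, adjusted p = 0.027), with 29% called, and day 1 cells in Gatm (0.28 ± 0.08, adjusted p = 0.0086), with 24.9% called. The smaller of these depended on the fit. With antimycin, calls lost were Slc6a8 (adjusted p = 0.084 with plate position as a covariate) and Gamt (adjusted p = 0.058 without the first replicates and 0.20 without the second replicates). With oligomycin they were Ckb (adjusted p = 0.061 at log2 0.28 with plate position as a covariate) and Gatm (adjusted p = 0.27 without the filter on low counts, 0.18 with plate position as a covariate, 0.055 with only the conditions compared in the fit, 0.43 at log2 0.13 without the first replicates and 0.14 without the third replicates) in myotubes. On day 1 they were Gatm (adjusted p = 0.12 without the filter on low counts, 0.17 without the first replicates, 0.074 without the second replicates and 0.45 at log2 0.14 without the third replicates) with oligomycin and Slc6a8 (adjusted p = 0.069 at log2 -0.54 without the first replicates) with piericidin. A called value for Ckm with piericidin (2.61, adjusted p = 0.036) rests on 0 to 3 counts a sample in myoblasts and is no measure of a response there, since Ckm passed the filter only through the differentiated cells. That call was lost in some fits: Ckm (adjusted p = 0.12 without the filter on low counts, 0.060 with DESeq2's Wald test, 0.16 without the second replicates and 0.15 without the third replicates). The same limits hold as for the states themselves, which differ in transduction, doxycycline and serum.

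Over the 35 conditions each gene had its own order. Ckb ran from 305 ± 10.8 CPM (SD, n = 3, as for the next values) in day 1 cells with DMSO down to 15.97 ± 1.99 in control myoblasts with oligomycin, with a gap between the lowest myotube condition, 169 ± 11.3, and the highest myoblast condition, 43.9 ± 3.69. Within each side of that gap most neighbours overlapped. Gamt had the same gap, between 50.7 ± 5.74 CPM in day 1 cells with oligomycin and 19.8 ± 3.27 (n = 2) in control myoblasts with DMSO for 48 h, and its extremes were 94.03 ± 5.56 in LbNOX myotubes with DMSO and 5.99 ± 1.02 in control myoblasts with piericidin. For Gatm the 3 day 1 conditions were on top, at 357, 310.4 and 293 CPM, and the lowest was 58.2 ± 0.811 in control myoblasts with piericidin. Myoblasts and myotubes were interleaved between them, as they were for Slc6a8. The highest levels of Slc6a8 were those of mitoLbNOX (27.2 ± 2.37) and control (26.5 ± 4.01) myoblasts with antimycin, which overlapped, then control myoblasts with piericidin (19.4 ± 1.93), which stood apart from both neighbours. Below those 3, every neighbouring pair of conditions overlapped, down to 8.96 ± 0.469 CPM in 5% oxygen with oligomycin.

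Some genes had patterns close to those of the members, measured as Pearson's r of condition means of log2 CPM over the 35 conditions among 11855 genes. Over all conditions r follows mostly the cell state. The nearest gene was Unc45b for Ckm (r = 0.997), Tmem38a for Ckb (0.990), Slc10a4 for Ckmt2 (0.984), Wdfy1 for Slc6a8 (0.854), Pcolce for Gatm (0.878) and Hes6 for Gamt (0.990). After the mean of each cell state was taken out, the nearest were Slc35d1 for Ckm (0.697), Ucp2 for Ckb (0.903), Smtnl1 for Ckmt2 (0.936), Fam53a for Slc6a8 (0.870), Prkaca for Gatm (0.923) and Fis1 for Gamt (0.932). Transduced and untransduced myotubes shared 1 state mean, which bears on Ckmt2 above all. The next 4 genes were Rer1, Nmnat1, Anapc7 and Cops4 for Ckm, Tuba4a, Ormdl2, Tmem38a and Pcolce for Ckb, and Cck, Cldn2, Agt and Polr2e for Ckmt2. They were Cstb, Ecsit, Atp6v0b and Wdfy1 for Slc6a8 and Abhd8, Sh3glb2, Tspan3 and Fmo1 for Gamt, and those for Gatm included Nfic, B3galnt1 and Mrgprf. Among the members themselves r within states was 0.80 for Ckb with Gamt, 0.77 for Gatm with Gamt and 0.69 for Ckb with Gatm, and -0.48 for Slc6a8 with Gatm. Many conditions share a cell state and have libraries of like depth, so these values describe the table only.

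Of 9 tested genes of arginine and S-adenosylmethionine metabolism, which supply Gatm and Gamt, 5 rose and 2 fell with piericidin in control myoblasts, 3 rose and 4 fell with antimycin, and 4 rose and 3 fell with oligomycin. Of all genes, 61.7%, 63.2% and 50.8% were called in these comparisons. Mat2a, which makes S-adenosylmethionine, fell with piericidin (-0.56 ± 0.06) and antimycin (-1.71 ± 0.06). Mtr, which regenerates methionine, rose with piericidin (0.91 ± 0.12) and oligomycin (1.04 ± 0.12), and Ass1, of arginine synthesis, rose by 0.35 ± 0.04 and 0.53 ± 0.04. Asl, also of arginine synthesis, fell with oligomycin (-0.73 ± 0.12). In myotubes 2 of 8 rose and 1 fell with oligomycin, beside 33.3% of all genes called, among them Ass1 (0.49 ± 0.09) and Mat2a (0.39 ± 0.04). With piericidin 1 was called there, Mat2a (-0.19 ± 0.04), beside 8.99% of all genes. The medians of the list in myoblasts were 0.33, 0.12 and 0.07 on the log2 scale with the 3 inhibitors in the same order, and the medians of all genes over all 57 comparisons lay between -0.02 and 0.07. In day 1 cells 4 of 9 were lower than in control myoblasts with DMSO, among them Ass1 (-2.13 ± 0.08) and Ahcy (-1.77 ± 0.31), which clears the product of methylation. Another 2 were higher, beside 63.6% of all genes called.

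The adenylate kinases, which together with creatine kinase even out ATP and ADP, and the AMP deaminases had a single large mover in myotubes. Ak4, a mitochondrial adenylate kinase, fell with piericidin (-2.29 ± 0.29), antimycin (-2.45 ± 0.27) and oligomycin (-3.03 ± 0.30) on the log2 scale, and rose by 2.85 ± 0.20 in 5% oxygen and 2.14 ± 0.20 with BAM15. With piericidin and antimycin it was the only one of 9 called in the group, and with oligomycin 3 rose and 4 fell, beside 8.99%, 12.9% and 33.3% of all genes called with piericidin, antimycin and oligomycin. In control myoblasts Ampd3, an AMP deaminase, rose with all 3 inhibitors (0.54, 2.29 and 0.93), and Ak1, the cytosolic adenylate kinase of muscle, fell with piericidin (-0.53 ± 0.06) and oligomycin (-0.52 ± 0.06). Of 7 tested genes there, 2 rose and 2 fell with piericidin, 1 and 1 with antimycin, and 3 and 1 with oligomycin, beside 61.7%, 63.2% and 50.8% of all genes called.

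Of the subunits of AMPK, the kinase that senses AMP, Prkab2 rose with all 3 inhibitors in myotubes (0.41, 0.56 and 0.59), and Prkag3, a subunit of skeletal muscle, fell (-0.52, -0.50 and -0.22). No other subunit of the 7 was called with piericidin or antimycin, and with oligomycin Prkaa2 (-1.06 ± 0.16) and Prkag1 (-0.38 ± 0.07) also fell. In control myoblasts 3 of the 7 fell with each inhibitor, among them Prkaa1 (-0.35, -0.38 and -0.52). There Prkab2 rose with piericidin (0.51) and antimycin (0.75), beside 61.7%, 63.2% and 50.8% of all genes called with piericidin, antimycin and oligomycin. Among the 5 carriers and pores that mitochondrial creatine kinase works with, Vdac3 rose with oligomycin in both states (0.65 ± 0.05 in myoblasts and 0.59 ± 0.04 in myotubes), with 3 of 5 higher in myoblasts and 2 of 5 in myotubes. Slc25a4, an ADP/ATP carrier, fell with oligomycin in myoblasts (-0.13 ± 0.04) and myotubes (-0.17 ± 0.04), the only one called lower in either. The shares of all genes called were 50.8% and 33.3%. With piericidin in myoblasts Vdac3 (0.52 ± 0.05) and Vdac2 (0.34 ± 0.04) rose and Slc25a4 fell (-0.22 ± 0.04). Vdac2 also rose with antimycin in myoblasts (0.33 ± 0.04) and with piericidin (0.15 ± 0.05) and antimycin (0.19 ± 0.05) in myotubes, and Vdac3 with antimycin in myotubes (0.16 ± 0.04). Of 7 genes for M-band proteins that anchor Ckm and for ion pumps that use its ATP, 1, 5 and 3 rose in myotubes with piericidin, antimycin and oligomycin. The shares of all genes called there were 8.99%, 12.9% and 33.3%.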

How the data were processed

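RNA-seq of 96 C2C12 samples in 35 conditions was analysed from 1 table. Per the methods and the submitters' processing notes, the authors made polyA Smart-seq2 libraries without strand, demultiplexed with bcl2fastq 2.20.0.422, quantified reads with kallisto 0.44 against the GRCm38 mouse transcriptome with transgene sequences added, and summed transcripts to genes. The deposited table holds these estimated counts as whole numbers, not normalised, for 54150 rows, with 6458295 to 15366745 a sample. Conditions and replicate numbers came from the labels. Of 87 replicate pairs, 0 were identical.

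Levels are TMM-scaled CPM over all 96 samples. The comparisons, 57 in all, were fitted in 6 models (37 myoblast samples, 8 with chloramphenicol or its DMSO, 27 untransduced and 15 transduced myotubes, 9 day 1 samples, and 33 across states) with edgeR 4.0.16 in R 4.3.3 (limma 3.58.1), after dropping any gene that in no condition of the model reached 16 counts in all its samples. The quasi-likelihood F test was adjusted by Benjamini-Hochberg over all genes of a comparison, with 0.05 as threshold, and the standard error is the absolute log2 fold change over the square root of F. On simulated counts at the depth of piericidin in control myoblasts, 170 of 200 genes changed 2-fold among 11981 were recovered with 9 false calls. For chloramphenicol in control myoblasts it was 154 of 200 among 11704, with 21 false calls.

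Replicate numbers did not pair the samples: residuals of samples with the same number in different conditions correlated at -0.040 to 0.055 on average over the 6 models. Alternatives were DESeq2 1.42.0 (size factors, and its Wald test without the shrinkage the authors used), no filter, only the conditions compared, plate position, a replicate block and leaving out each replicate number (1 sample for chloramphenicol). Plate position was coded only as outer against inner wells. Python 3.11.15 with pandas 2.3.3, SciPy 1.17.1 and matplotlib 3.10.9 served for intervals, motifs and figures. Members and lists were chosen with earlier results of these data known. Beside the members, lists name up to 4 called genes with the largest change and a mean of at least 50 counts, and the 5 genes most like each member were taken by Pearson's r. Some genes that these rules pick are not reported here.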

Additional observations from a re-analysis of the deposited data

Results flagged for a closer look

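The following responses differed between groups of cells in a test of the difference itself (edgeR's quasi-likelihood F test of the interaction, Benjamini-Hochberg adjusted over all genes), and values are the response in the first group minus that in control myoblasts, on the log2 scale. For piericidin these were 0.55 for Ckb, 0.94 for Gatm and 1.39 for Gamt with LbNOX, 0.57 for Ckb, -0.71 for Slc6a8, 1.04 for Gatm and 1.03 for Gamt with mitoLbNOX, and 0.66 for Ckb, -0.997 for Slc6a8, 0.97 for Gatm and 1.29 for Gamt with NDI1. For antimycin they were 1.07 for Ckb, -0.79 for Slc6a8, 0.48 for Gatm and 1.01 for Gamt with LbNOX, and for oligomycin 0.38 for Gatm with LbNOX. In these, values for Gatm, Gamt and Ckb were positive and those for Slc6a8 negative.

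Between cell states, the response of day 4 myotubes minus that of control myoblasts was 0.65 for Ckb, 1.13 for Gatm and 1.36 for Gamt with piericidin, -0.68 for Slc6a8, 0.56 for Gatm and 0.49 for Gamt with antimycin and 0.43 for Ckb, 0.23 for Gatm and 0.73 for Gamt with oligomycin. Ckm was also called with piericidin, at 2.61, but it passed the filter on low counts only through the differentiated cells and had 0 to 3 counts a sample in the myoblasts compared, so this value measures no response there. It was not called without the filter (adjusted p = 0.12), by DESeq2's Wald test (0.060) or without the second (0.16) or the third (0.15) replicates. For day 1 cells minus control myoblasts the difference was 0.64 for Ckb, -0.89 for Slc6a8, 0.90 for Gatm and 1.26 for Gamt with piericidin and 0.28 for Gatm with oligomycin. No condition had 4 or more samples, so single samples were not screened. All of these comparisons share the control myoblast samples.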

How the results depend on the processing

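Of 135 calls of the 6 genes, 78 were kept in every alternative, 108 in every alternative other than leaving out replicates, and 0 reversed direction. These include the calls of Ckm and Ckmt2 between states, which the filter on low counts fixed. With only the conditions compared in the model, calls between transgenes with DMSO went from 2 to 1, and those with chloramphenicol from 1 to 0. Chloramphenicol gave 2 without the filter on low counts and 0 with plate position as a covariate. The share of Ckm among the kinases was 0.708% in control myoblasts, 65.3% on day 1 and 66.1% on day 4 both with coding length and with no division by length, since both chains have coding sequences of the same length. The cause of the other shifts was not tested.

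Leaving out each replicate number gave between 11 and 12 calls for inhibitors in control myoblasts (12 with all samples), 6 and 11 in transgenic myoblasts (10), 15 and 17 for the transgene interactions (16), 0 and 2 for transgenes with DMSO (2), 5 and 7 for inhibitors against each other in myoblasts (9), 0 and 1 for chloramphenicol (1), 8 and 10 in myotubes (12), 4 and 7 for inhibitors against each other in myotubes (9), 8 and 13 for the combinations, BAM15 and oxygen (17), 7 and 13 in transduced myotubes (16), 3 and 4 on day 1 (6), 10 and 10 for states (10) and 12 and 13 for the state interactions (15). With 2 samples a condition, the sample left alone is assumed to vary like the other conditions.

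With the replicate number as a block, calls in the same order were 12, 11, 17, 2, 9, 0, 12, 8, 16, 15, 6, 10 and 15. Its 4 lost calls were Ckb with chloramphenicol (adjusted p = 0.073) and Ckmt2 with 5% oxygen (0.052), with piericidin in GFP myotubes (0.062) and for oligomycin against antimycin in myotubes (0.064), and Gatm was gained for antimycin in mitoLbNOX against control myoblasts (0.022) and for oligomycin in LbNOX myoblasts (0.048). The numbers do not pair the samples. Plate position could not be fitted for day 1 and was not run. Depth limits Ckm in myoblasts and Ckmt2 before day 4, where a few counts or none were found, and Ckmt2 in untransduced myotubes, at 20 to 70 counts a sample.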
